A study of Mus musculus with 48 samples.

Results

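The 1134 reporter elements described here belong to the class that the deposited table calls NSC and carry the label asc in their names. They were taken by that class and that label from the 11709 elements of a massively parallel reporter assay, together with the 1086 NSC elements labelled desc, the 905 labelled unc and the 996 scrambled controls as comparisons. The label is part of each element's name and the rule that selects the members uses no reporter value, although the label was picked for description with earlier results of these data known. The names carry a running number only, and the sources used here give neither what asc, desc and unc stand for nor where each element lies. No sequence was analysed here. In such an assay each element sits in a reporter plasmid, and reporter RNA and plasmid DNA are both sequenced from the sorted cells. All samples were somatosensory cortex of C57BL/6JRj mouse embryos, electroporated in utero with the library at embryonic day (E) 12, 13, 14, 15 or 16 and collected 24 h later, at E13 to E17. Fixed and permeabilised cells were stained for Pax6, Eomes and Tubb3 and sorted into Pax6+ cells, taken as neural stem cells (NSC), and Tbr2+ cells, taken as intermediate progenitors (IPC). The 24 biological samples, each with 1 DNA and 1 RNA library, comprised 3 of each cell type at E14 and E15 and 2 of each at E13, E16 and E17. The sources used here do not say whether a sample was 1 embryo or a pool.

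Neural stem cells of the developing cortex, also called radial glia, line the ventricle and express the transcription factor Pax6. They divide to renew themselves and to give rise to neurons, either directly or through intermediate progenitors marked by Tbr2, the product of Eomes, and the kinds of neurons they produce change as development proceeds. Enhancers are stretches of DNA that bind transcription factors and raise the transcription of a gene, and a reporter assay reads this activity for a short element outside its own place in the genome. The table holds reporter values only, so the sorted identities could not be checked against endogenous marker genes.

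Each element had 1 activity value for each of 10 columns, 1 per cell type at each age, and the 2 or 3 biological samples behind a column share that 1 deposited value. The spread between samples is therefore unknown, no test across samples was possible, and the depth behind each value is unknown. Activities were divided by the median of the scrambled controls of the same column, so that 1 is the scrambled median. That median lay between 0.164 (NSC at E13) and 2.37 (NSC at E17) on the deposited scale. The middle 50% of controls spanned 1.88 times the median in NSC at E13, against 0.580 times in NSC at E17. Between 1104 and 1128 of the 1134 asc elements had a value in a column, 1072 had one in all 10 columns and 2 had none at all. Means are of log2 values relative to the scrambled mean, after adding 0.1 to the ratio, and their standard errors (SE) are over elements, not over animals.

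In neural stem cells the asc elements differed from scrambled controls by less than 1 SE at E13 and stood above them at each later age. The median asc element had 0.994, 1.17, 1.27, 1.28 and 1.40 times the scrambled median from E13 to E17. On the log2 scale the mean was 0.01 ± 0.05 (SE, n = 1115 elements) at E13 and 0.16 ± 0.03 (n = 1128) at E14. It was 0.27 ± 0.03 (n = 1118) at E15, 0.28 ± 0.04 (n = 1117) at E16 and 0.46 ± 0.02 (n = 1125) at E17. The means at E15 and E16 differed by less than their SE, and the other neighbouring ages differed by more. The increments in single elements were 0.16 ± 0.05 to E14, 0.09 ± 0.04 to E15, 0.02 ± 0.05 to E16 and 0.18 ± 0.04 to E17. With a pseudocount of 1 in place of 0.1 the mean at E17 was 0.28. Age and library cannot be told apart, since each age is 1 column.

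**Figure D1:**
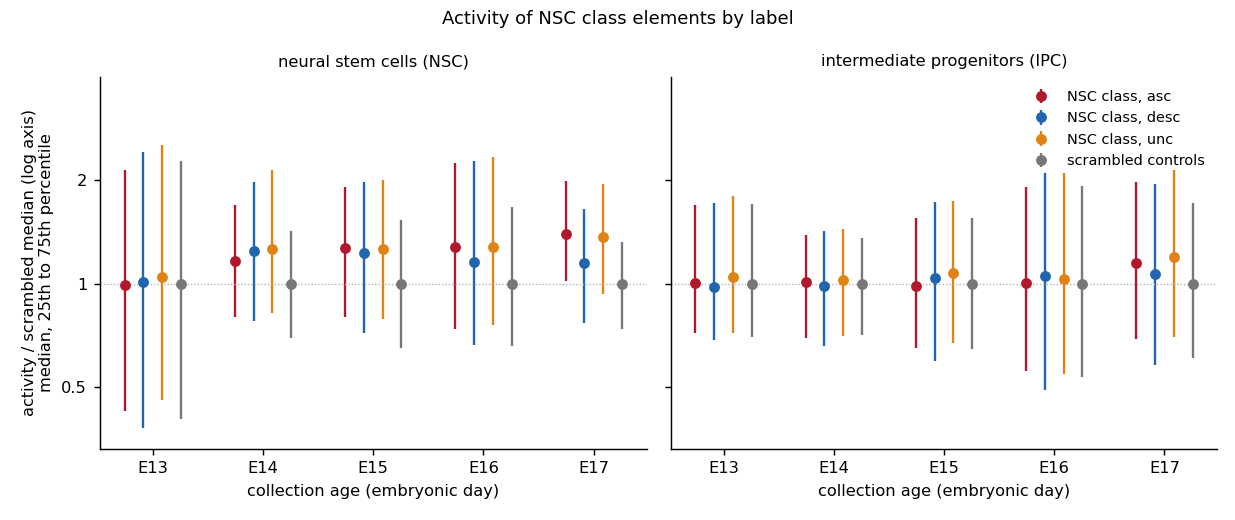
Activity relative to the scrambled median (log axis) against collection age in neural stem cells (left) and intermediate progenitors (right), for NSC elements labelled asc, desc and unc and for scrambled controls. Points are medians over elements and bars run from the 25th to the 75th percentile. In neural stem cells the asc median goes from 0.994 at E13 to 1.40 at E17, and in intermediate progenitors it lies between 0.986 and 1.15.

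These shifts were smaller than the spread of single elements, by the least at E17. The mean log2 shift at E17 was 0.46, with an SD over elements of 0.76 for asc and 0.67 for scrambled controls. The middle 50% of asc elements in neural stem cells ran from 0.426 to 2.15 times the scrambled median at E13, where scrambled controls ran from 0.404 to 2.28. At E17 they ran from 1.02 to 1.99, against 0.740 to 1.32 for scrambled controls, so the asc element at the 25th percentile stood at the middle of the controls.

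Counted by element, the share of asc elements above the scrambled median in neural stem cells was 49.8%, 61%, 63.9%, 62% and 75.4% from E13 to E17. Over all non-scrambled elements the same shares were 49.6%, 56.5%, 57.4%, 56.5% and 59.3%. The asc share was thus at the background at E13 and furthest from it at E17, where its 95% Wilson interval ran from 72.8% to 77.8%. The E17 share was 59% (56 to 61.9) for desc and 71.4% (68.4 to 74.3) for unc, whose interval overlaps that of asc. Such intervals cover the sampling of elements only.

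Strongly active elements at E17 had similar shares among asc and unc elements, both above the background, while asc shares at the earlier ages were near it. An upper limit was set in each column so that it was passed by 2.5% of the controls. It was exceeded in NSC by 26 (2.33%), 37 (3.28%), 43 (3.85%), 36 (3.22%) and 132 (11.7%) asc elements from E13 to E17. Of all non-scrambled elements, 3.15%, 4.12%, 3.49%, 3.41% and 6.52% exceeded it at these ages. At E17 it was exceeded by 80 desc elements (7.46%) and 102 unc elements (11.3%). The limit itself differed between ages, with 13.3, 4.71, 4.68, 7.33 and 2.64 times the scrambled median from E13 to E17. An asc element at 3 times the controls would therefore pass at E17 and at no other age. The part of this difference in limits in the E17 share was not tested.

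The authors' deposited p-value, adjusted within each column, compares each element with the scrambled controls in the upward direction. Under 0.05 in neural stem cells were 159 (14.3%), 157 (13.9%), 173 (15.5%), 237 (21.2%) and 256 (22.8%) asc elements from E13 to E17. The shares over all non-scrambled elements were 15.3%, 14.7%, 12.5%, 19.4% and 13% at the same ages. Scrambled controls themselves were called at 13.3%, 9.77%, 8.11%, 12.9% and 6.16%. The Wilson interval of the asc share included the background of all elements at E13 (12.3 to 16.4), E14 (12 to 16.1) and E16 (18.9 to 23.7). It lay above the background at E15 (13.5 to 17.7) and E17 (20.4 to 25.3), by the widest margin at E17. Shares above the background were seen in part for the other labels of the class too. From E15 to E17 desc elements were called at 14.8%, 22.7% and 13.1% and unc elements at 15.3%, 23.6% and 22%.

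**Figure D2:**
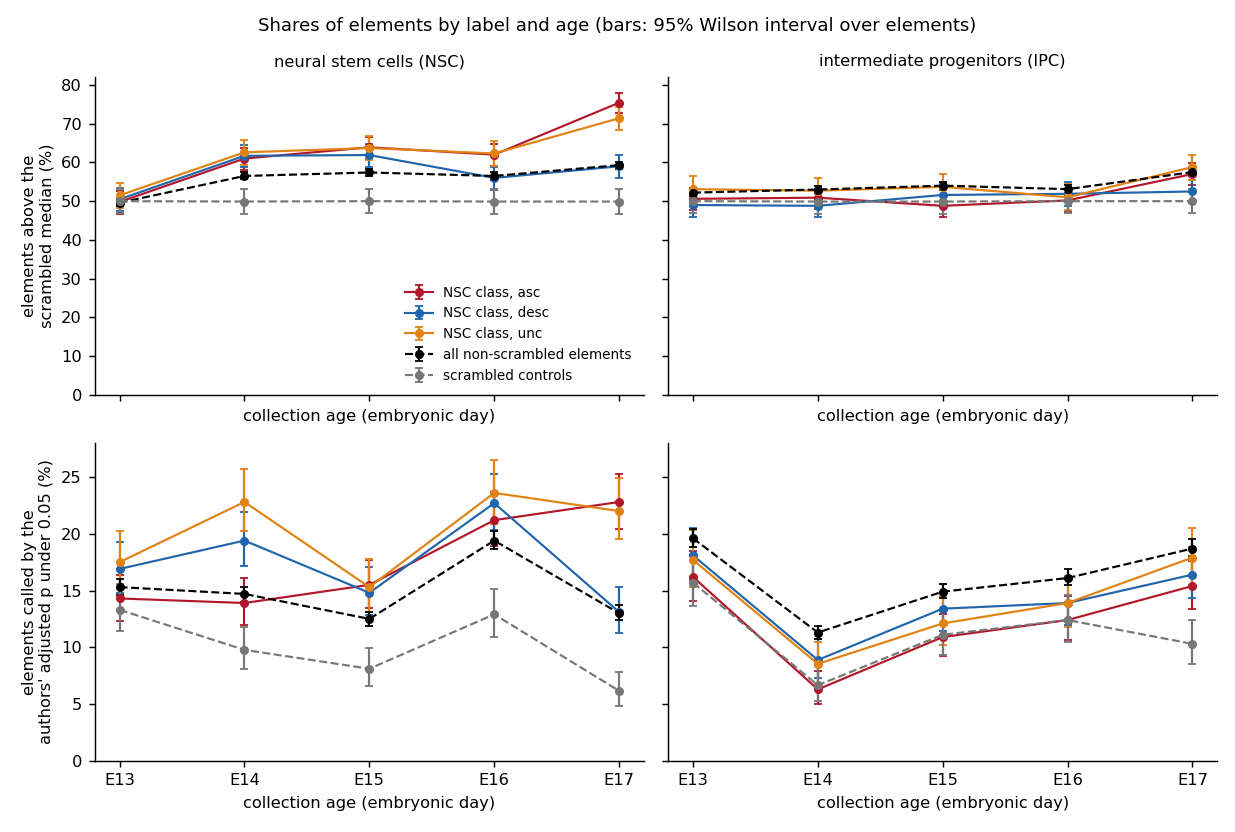
Share of elements (%) above the scrambled median (top) and called by the authors' adjusted p-value under 0.05 (bottom) against collection age, in neural stem cells (left) and intermediate progenitors (right). Bars are 95% Wilson intervals over elements. In neural stem cells asc elements reach 75.4% and 22.8% at E17, against 59.3% and 13% of all non-scrambled elements, and in intermediate progenitors they lie under the black line of all non-scrambled elements at each age.

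The distribution of asc elements at E17 was displaced over nearly its whole range. Relative to the scrambled controls at the same percentile, asc elements in neural stem cells stood at 1.36 at the 10th percentile, 1.37 at the 25th, 1.40 at the median, 1.50 at the 75th and 1.54 at the 90th. At E13 the same ratios lay between 0.942 and 1.05. Elements labelled desc showed another shape at E17, with 0.945 at the 10th percentile, 1.15 at the median and 1.27 at the 90th. Elements labelled unc stood at 1.16, 1.36 and 1.51 at these 3 percentiles. At E14 the upper part of the asc distribution was the least displaced of the 3 labels, with 1.16 at the 90th percentile for asc, 1.58 for desc and 1.69 for unc.

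**Figure D3:**
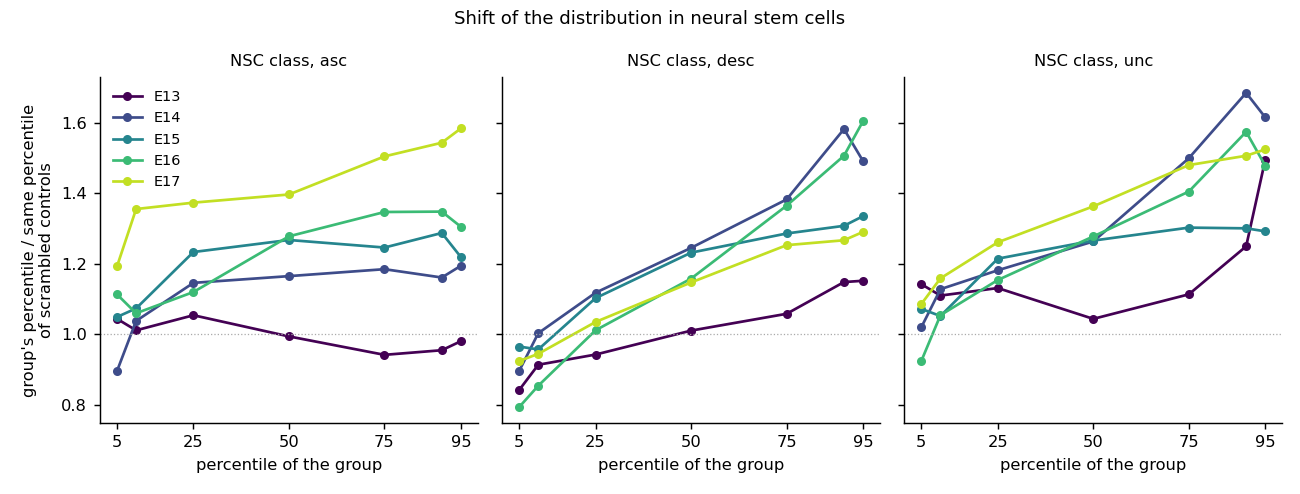
Each group's percentile divided by the same percentile of the scrambled controls, against the percentile, in neural stem cells at 5 ages, for asc (left), desc (middle) and unc (right) elements. The asc curve at E17 stays between 1.36 and 1.58 from the 10th to the 95th percentile, while the desc curve at E17 goes from 0.945 to 1.29.

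In intermediate progenitors the means of the same elements lay within 1 SE of the controls from E13 to E16. Their median was 1.01, 1.01, 0.986, 1.00 and 1.15 times the scrambled median from E13 to E17. The log2 means were 0.03 ± 0.03 (SE, n = 1113), 0.01 ± 0.02 (n = 1128), -0.01 ± 0.03 (n = 1111) and 0.04 ± 0.04 (n = 1104) from E13 to E16, and 0.18 ± 0.03 (n = 1122) at E17. Only the E17 mean stood more than 2 SE from the controls among these 5 columns. An SE over elements does not cover the spread between libraries.

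Above the scrambled median in intermediate progenitors lay 50.6%, 50.9%, 48.8%, 50.2% and 57% of asc elements from E13 to E17. Over all non-scrambled elements the shares were 52.2%, 53%, 54%, 53.1% and 57.5%. The upper limit was exceeded by 4.31%, 2.48%, 2.34%, 3.62% and 5.08% of asc elements from E13 to E17, against 5.38%, 5.84%, 3.77%, 4.64% and 6.85% of all non-scrambled elements. The authors' p-value called 180 (16.2%), 71 (6.29%), 121 (10.9%), 137 (12.4%) and 173 (15.4%) asc elements at the same ages, where the background was 19.6%, 11.3%, 14.9%, 16.1% and 18.7%. By each of these measures the asc shares were under the background of the library in intermediate progenitors. The called shares of desc (18.1%, 8.88%, 13.4%, 13.9% and 16.4%) and of unc (17.7%, 8.54%, 12.1%, 13.9% and 17.9%) were under it too. Scrambled controls were called at 15.7%, 6.66%, 11.1%, 12.4% and 10.3% in IPC from E13 to E17. The asc called shares lay near these from E13 to E16 and above them at E17.

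The gap between the cell types was under 1 SE at E13 and between 0.26 and 0.28 on the log2 scale from E15 to E17. NSC minus IPC was -0.02 ± 0.06 at E13 (SE over 1105 elements), where asc means were 0.01 for NSC and 0.04 for IPC. The difference was 0.16 ± 0.03 at E14, 0.28 ± 0.04 at E15 and 0.26 ± 0.05 at E16. It was 0.28 ± 0.04 at E17, where the asc means were 0.47 for NSC and 0.18 for IPC. Over the 5 ages the asc means were 0.26 for NSC and 0.06 for IPC, which differ by 0.19 ± 0.02 (SE, n = 1072). Higher in NSC were 62.7% of asc elements, 57.6% of desc and 61.9% of unc, against 49.5% of all non-scrambled elements and 48.6% of controls. The difference over the ages was 0.16 ± 0.02 for desc, 0.23 ± 0.02 for unc and -0.0043 ± 0.02 for scrambled controls, so each of the 3 labels was higher in NSC. Over all non-scrambled elements it was -0.0071 ± 0.0074. With a pseudocount of 1 the asc difference was 0.11. In these bulk sorted populations, the share of cells with reporter activity and the RNA per cell cannot be told apart.

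Single asc elements that kept this direction were more frequent than those of the opposite one. Activity was higher in NSC at all 5 ages for 82 of 1072 asc elements (7.65%), where 4.13% of the non-scrambled library and 3.14% of controls did the same. It was higher in IPC at all 5 ages for 11 asc elements (1.03%), against 4.4% of the library and 2.62% of controls. The desc elements had 49 (5.02%) and 28 (2.87%) of 977, and the unc elements 55 (6.53%) and 18 (2.14%) of 842.

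Set against the other labels of the class in neural stem cells, asc elements stood apart from desc at E17 and from unc at the early ages. Asc minus desc was -0.04 ± 0.07, -0.12 ± 0.04, 0.04 ± 0.05, 0.07 ± 0.06 and 0.30 ± 0.03 from E13 to E17. The asc elements were thus the lower at E14, within 2 SE of desc at E13, E15 and E16, and the higher at E17, where they averaged 0.46 and the desc elements 0.16. Asc minus unc was -0.17 ± 0.07 at E13 and -0.22 ± 0.05 at E14, where asc averaged 0.16 and unc 0.38. It was -0.04 ± 0.05 at E15, -0.03 ± 0.06 at E16 and 0.05 ± 0.03 at E17. The 95% interval of the last difference, -0.02 to 0.12, includes 0. In intermediate progenitors asc minus desc was within 1 SE of 0 from E13 to E16 and 0.10 ± 0.05 at E17. Asc minus unc lay between -0.07 and -0.04 at the 5 ages in IPC, each within 2 SE of 0.

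The change with age was summarised as the least-squares slope of each element over the 5 ages, for elements with a value at all of them. The mean NSC slope was 0.10 ± 0.01 per day on the log2 scale for asc elements (SE, n = 1094), 0.02 ± 0.01 for desc (n = 1019), 0.05 ± 0.01 for unc (n = 867) and 0.01 ± 0.01 for scrambled controls (n = 973). Over all non-scrambled elements the mean NSC slope was 0.034 ± 0.004 (n = 10162). Asc exceeded desc by 0.09 ± 0.02 per day and unc by 0.06 ± 0.02. Leaving out 1 age at a time gave asc minus unc slopes between 0.049 and 0.067, and asc minus desc slopes between 0.055 (without E17) and 0.12 (without E13). With a pseudocount of 1 the asc slope was 0.066. In intermediate progenitors the asc slope was 0.030 ± 0.010 (n = 1084), near the 0.028 ± 0.004 of all non-scrambled elements (n = 10051). Without E17 the asc slope there was -0.0057. Asc differed there from desc by 0.01 ± 0.02 and from unc by -0.01 ± 0.02. Over the elements with all 10 values the asc slopes of 0.10 for NSC and 0.03 for IPC differed by 0.07 ± 0.01, against -0.0010 ± 0.016 for desc and 0.01 ± 0.02 for unc.

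Single asc elements differed in the sign of this change. A slope above 0 in neural stem cells was found for 709 of 1094 asc elements (64.8%), against 57.1% of all non-scrambled elements. It was found for 54.6% of desc elements, 58% of unc elements and 54.7% of scrambled controls. The middle 50% of asc slopes ran from -0.12 to 0.33 per day. Both late ages (E16 and E17) stood above both early ages (E13 and E14) in 263 asc elements (24%), against 19.7% of the library and 17.5% of controls. The reverse order was seen in 108 asc elements (9.87%), against 14.2% and 15.6%. In intermediate progenitors 54.9% of asc elements had a slope above 0, against 54.7% of all non-scrambled elements. There the late ages stood above the early ages in 212 (19.6%) and below them in 157 (14.5%), against a background of 19.2% and 15.9%.

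Averaged over the 5 ages, few asc elements were strongly active. Their mean activity in NSC had a median of 0.24 and ranged from -1.26 to 3.19, with an SD of 0.53 over elements, against a median of -0.01 and an SD of 0.49 for scrambled controls. The limit of 1.06 that 2.5% of scrambled controls exceed was passed by 70 asc elements (6.4%, Wilson interval 5.1 to 8.01), near the 6.05% of all non-scrambled elements. The shares were 8.44% (6.89 to 10.3) for desc and 13.5% (11.4 to 15.9) for unc. The asc and unc medians were nevertheless close, at 0.24 and 0.26. At the lower end 13 asc elements (1.19%) lay under the scrambled limit, against 2.15% of all non-scrambled elements. In intermediate progenitors 44 asc elements (4.06%) passed the upper limit, against 8.61% of all non-scrambled elements, and 17 (1.57%) lay under the lower one, against 2.05%.

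Calls by the authors' p-value were seldom repeated over ages. In NSC 479 asc elements were called at no age, 409 at 1, 175 at 2, 61 at 3, 10 at 4 and 0 at all 5. A missing value counted as not called. At least 1 call was found for 57.8% of asc, 55.9% of desc and 59.9% of unc elements, against 50.3% of all non-scrambled elements and 38.4% of controls. The 71 elements called at 3 or more ages made up 6.26% (Wilson interval 4.99 to 7.82), against 6.45% of desc elements, 9.39% of unc elements, 4.66% of all non-scrambled elements and 1.31% of controls. Of these 71 elements, 32, 45, 37, 53 and 56 were called from E13 to E17. The called share of all non-scrambled elements differed between these ages too, at 15.3%, 14.7%, 12.5%, 19.4% and 13%. The counts by age were not made for repeated calls in the other groups. In intermediate progenitors 23 asc elements (2.03%) were called at 3 or more ages, against 5% of the library and 1.2% of controls. Calls at 3 or more ages in both cell types were found for 1 asc element (0.0882%), 5 desc elements (0.46%) and 7 unc elements (0.773%), against 0.56% of all non-scrambled elements and 0 of 996 controls.

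Values of the same asc element in different columns were weakly correlated. Across asc elements, Spearman's rho between pairs of NSC columns lay between 0.03 and 0.14, with a median of 0.06 over 10 pairs. The medians were 0.11 for desc elements, 0.15 for unc elements and 0.02 for scrambled controls. Between IPC columns the median was 0.04 for asc elements (-0.0027 to 0.15 over 10 pairs) and 0.05 for scrambled controls. Between the NSC and IPC columns of the same age it was 0.08 for asc elements (0.05 to 0.16 over 5 pairs). There it was 0.11 for desc elements, 0.16 for unc elements and 0.06 for scrambled controls. The columns share the plasmid library and their depth is unknown, so these values are a description. Among asc elements called at 1 age in NSC, the median share also called at another age was 20.5% over 20 ordered pairs of ages, against 14.65% of asc elements not called at the first. For unc elements these shares were 29.1% and 18.5%, and for scrambled controls 12.75% and 9.195%. In IPC they were 14.9% and 11.9% for asc elements, and 12.35% and 10.9% for scrambled controls.

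**Figure D4:**
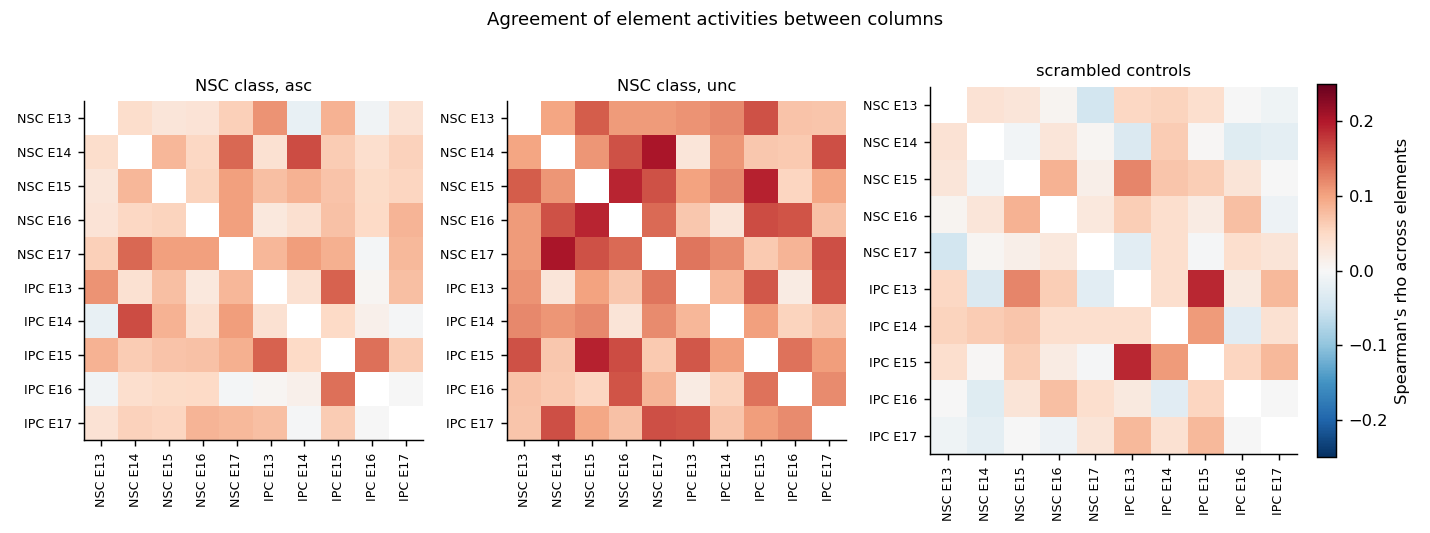
Spearman's rho across elements between each pair of the 10 columns (cell type and age on both axes), for asc elements (left), unc elements (middle) and scrambled controls (right), on a common colour scale. Pairs of NSC columns lie between 0.03 and 0.14 for asc elements, with a median of 0.06, against a median of 0.15 for unc elements and 0.02 for scrambled controls.

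The most active single elements were picked by their own values among asc elements with a value in all 10 columns, so their levels are descriptions. Of 65 such elements called at 3 or more ages in NSC (6.06%, against 4.81% of all non-scrambled elements), NSC_2683 had the highest mean over the NSC columns. Its NSC values were 2.77, 1.79, 21.5, 73.2 and 14.4 times the scrambled median from E13 to E17. Its IPC values were 11.3, 0.959, 0.277, 1.63 and 2.20 at the same ages. Its high values were thus those of E15 to E17 in NSC and of E13 in IPC. The second, NSC_4403, had 9.60, 2.73, 14.8, 0.394 and 20.7 times the scrambled median from E13 to E17 in NSC, and 1.82, 3.07, 0.658, 1.67 and 0.102 in IPC. It was called at 4 ages in NSC although its E16 value was among the low ones.

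NSC_1299, the third, stood at 6.41, 36.1, 3.23, 2.13 and 0.446 times the scrambled median from E13 to E17 in NSC, with the high values early, and at 14.0 in IPC at E17. NSC_1960 stood at 62.9 at E13 in NSC and at 0.367, 1.28, 6.87 and 2.64 at the later ages. NSC_2520 had 10.6, 2.55, 1.70, 6.56 and 1.95 in NSC, and between 0.752 and 1.36 in IPC. Among the elements picked by highest mean, NSC_4053 was the most even, with 1.97, 4.71, 4.51, 3.63 and 2.98 in NSC. It was called at 4 ages there, and had 0.800, 0.942, 0.889, 1.24 and 2.38 in IPC. The log2 means over the NSC ages were 3.19 for NSC_2683 and 2.21 for NSC_4403, above the highest control at 1.91. Those of NSC_1299, NSC_1960, NSC_2520 and NSC_4053 were 1.78, 1.72, 1.69 and 1.61, below that control.

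Elements with the steepest positive slope in NSC were sought among the 40 asc elements (3.73%) whose late values both exceeded both early ones and were both called. That order and those calls were met by 2.15% of desc elements, 2.97% of unc elements, 2.01% of all non-scrambled elements and 0.524% of controls. NSC_3410 came first, with 0.129, 1.43, 1.53, 11.7 and 4.76 times the scrambled median from E13 to E17 in NSC and a slope of 1.19 per day. In IPC its 5 values lay between 0.464 and 2.32. NSC_341 had 0.124, 0.596, 0.362, 15.0 and 2.25 in NSC, NSC_2934 had 0.209, 0.437, 2.64, 6.15 and 3.75, and NSC_273 had 0.0857 at E13, 4.41 at E16 and 2.69 at E17. In all 4 of these elements the E13 value was at most 0.209 times the scrambled median and the E16 value was the highest. The choice by steepest slope favours a low E13 value and a high late value, so this follows in part from the selection. The opposite order with calls at E13 and E14 was found in 18 asc elements (1.68%), against 3.48% of desc elements, 3.92% of unc elements, 2.34% of all non-scrambled elements and 1.78% of controls. The steepest negative slopes among them were those of NSC_3691, with 38.4, 3.64, 2.26, 0.608 and 0.853 in NSC, and of NSC_1299.

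Preference for neural stem cells at every age, with calls at 3 or more NSC ages, was found in 16 asc elements (1.49%), 10 desc elements (1.02%) and 17 unc elements (2.02%), against 0.84% of all non-scrambled elements and 0.314% of controls. The widest mean difference was that of NSC_849, at 1.92 on the log2 scale, with 6.44, 1.68, 0.595, 3.22 and 3.03 times the scrambled median in NSC and 0.956, 1.31, 0.199, 0.225 and 0.718 in IPC. NSC_3618 followed at 1.91, with 3.50, 2.62, 1.91, 2.54 and 2.57 in NSC and 0.473, 1.04, 0.106, 1.43 and 0.864 in IPC. All 5 of its NSC values lay above all 5 of its IPC values. Next came NSC_2520, at 1.76, and NSC_1317, at 1.69. NSC_1317 had 3.70, 0.454, 2.03, 3.19 and 2.66 times the scrambled median in NSC and 0.392, 0.231, 0.759, 1.44 and 0.492 in IPC.

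The opposite preference, with calls at 3 or more IPC ages, was found in 2 asc elements (0.187%), 5 desc elements (0.512%) and 1 unc element (0.119%), against 1.48% of all non-scrambled elements and 0 of 955 controls. NSC_1115 had 0.0967, 0.535, 0.348, 3.50 and 1.02 times the scrambled median in NSC from E13 to E17, and 3.43, 0.989, 0.943, 4.76 and 23.9 in IPC, with a mean NSC minus IPC of -2.18 on the log2 scale. NSC_2411 had 1.37, 1.27, 0.616, 0.545 and 3.46 in NSC, and 5.63, 1.72, 4.37, 15.6 and 7.25 in IPC, with a mean NSC minus IPC of -2.11. It was called at 4 of the 5 IPC ages and at 1 NSC age.

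**Figure D5:**
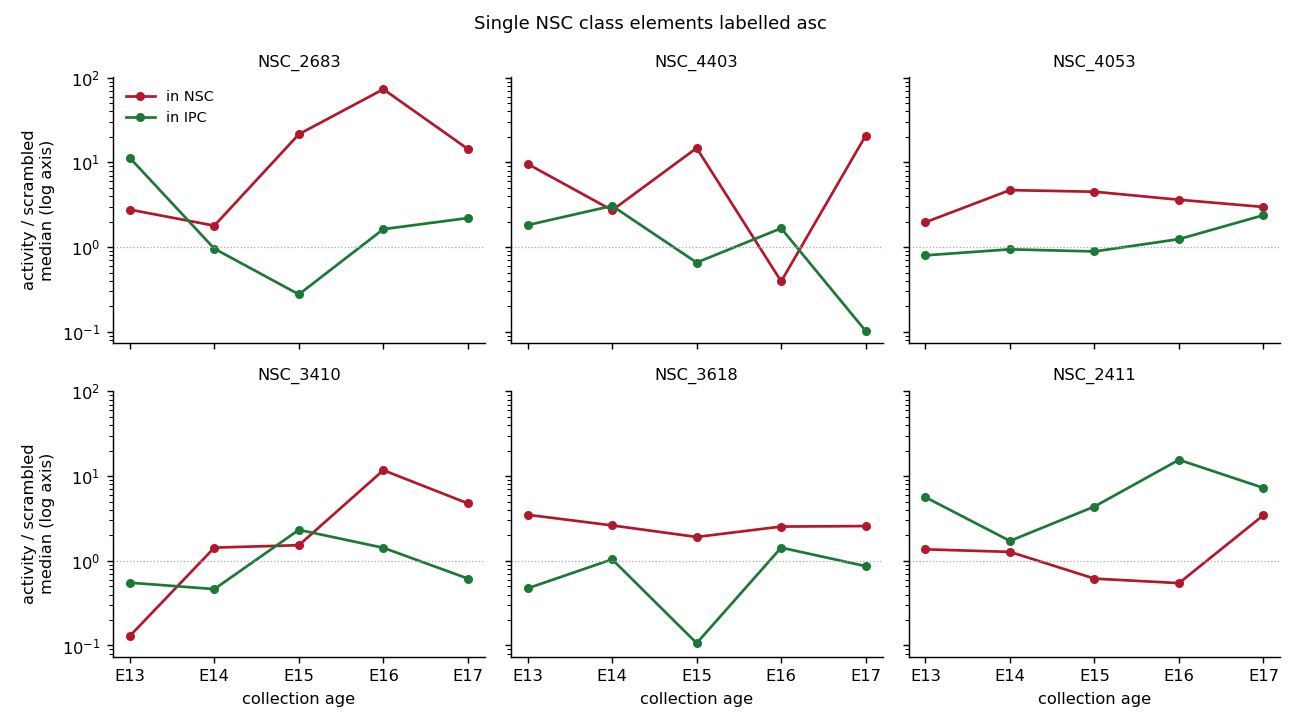
Activity relative to the scrambled median (log axis) of 6 single asc elements against collection age, in neural stem cells and in intermediate progenitors, 1 deposited value per point. NSC_4053 and NSC_3618 lie above 1 at all 5 ages in NSC, NSC_4403 drops to 0.394 at E16, and NSC_2411 is higher in IPC at all 5 ages.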

How the data were processed

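Reporter DNA and RNA were measured in 48 libraries of 24 biological samples. Groups were taken from the sample titles. Per the submitters' processing notes, cutadapt was run and mm10 was the mouse build. The sources used here do not give the aligner, barcode counting, filters or how replicates were combined. The single table has 30 value columns, 3 per combination of cell type and age (10 in all). The first is the authors' activity score (named statistic), never negative, on a linear scale and without a stated unit. The deposited MAD score is the activity minus the scrambled median, scaled by the scrambled median absolute deviation (recomputed, largest difference 4.66e-12). The authors' deposited p-value equals an upper-tail normal probability from it with Benjamini-Hochberg adjustment per column (largest difference 6.11e-15).

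Activities were taken relative to the median scrambled control per column. Log2 values used a pseudocount of 0.1, which understates how far low values lie under the controls, minus the scrambled mean. Limits come from 976 to 993 controls, and Wilson intervals have a level of 95%. The slope computation was tested on simulated data. Elements were named by a rule on highest mean, steepest slope and widest cell type difference, each among elements called at 3 or more ages or, for slopes, at both ages of the higher end. The members, selected by their label alone, and the lists and measures were chosen with earlier results of these data known. Python 3.11.15, numpy 2.4.6, pandas 2.3.3 and scipy 1.17.1 were used. Other pseudocounts, scalings, summaries, limits and left-out ages were tried. Shares of the combined criteria in the other groups, the percentile scale, the fit without subtracting the scrambled mean and the MAD score for label differences were added after seeing the data.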

Additional observations from a re-analysis of the deposited data

How the results depend on the processing

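No paired analysis was possible because the deposited columns hold 1 value per cell type and age and carry no replicate numbers, and for the same reason leaving out each replicate was not run. For values without a test, a move was counted when it exceeded the 95% interval over elements. For shares and counts the bound was 1.5 times. On the MAD or percentile scale only the direction was compared, and only for values whose own 95% interval over elements excluded 0. The others on these scales were counted as within bounds. Of 177 comparisons with an alternative, 160 stayed within these bounds. A pseudocount of 1, which compresses the log2 scale by construction, gave NSC means of 0.10, 0.16, 0.19 and 0.28 from E14 to E17, an IPC mean of 0.11 at E17, an NSC minus IPC difference of 0.11 and an NSC slope of 0.066. Class medians gave an NSC slope of 0.12. Without E13 the NSC minus IPC difference was 0.25, the asc minus desc slope in NSC 0.12 and the IPC slope 0.051. Without E17 the IPC slope turned to -0.0057, and asc minus desc in IPC was -0.020, against 0.011 with all ages. Without subtracting the scrambled mean the IPC slope was 0.0092. With a limit that 1% of controls exceed, the asc share was 0.359 times that of the controls in NSC at E13, against 0.933 with the 2.5% limit, and 2.26 times in IPC at E16, against 1.45. Calls at 4 or more IPC ages were 0.184 times as frequent as over all non-scrambled elements, against 0.405 at 3 or more. Apart from the values that follow from the pseudocount and from fewer ages, the cause was not tested. Depth is unknown, and 1 value per age limits each trend.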

Other observations

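The running numbers in the names of asc elements went from 2 to 4751 with a median of 2155, while those of desc elements ended at 1784 and those of unc elements at 1449. Spearman's rho between this number and activity across asc elements lay between -0.042 and 0.039 over the 10 columns, a description. The sources used here do not say what the number means.

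The highest single control exceeded the highest single asc element in 6 of the 10 columns. In NSC the highest asc elements stood at 67.9, 36.1, 33.8, 144 and 20.7 times the scrambled median from E13 to E17, and the highest controls at 88.5, 54.0, 82.8, 24.9 and 7.38. In IPC the highest asc elements stood at 72.3, 16.5, 25.2, 62.6 and 23.9, and the highest controls at 462, 15.5, 28.9, 31.2 and 42.9.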
